A study of Mus musculus with 6 samples.

Results

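The immediate early AP-1 and EGR genes examined here were Fos, Fosb, Fosl1, Fosl2, Jun, Junb, Jund, Egr1, Egr2 and Ier2, 10 of the 18112 genes measured, taken by their symbols. They were compared between primary vascular smooth muscle cells (VSMCs) from the aortas of Smyd2 fl/fl mice, which carry loxP sites in Smyd2, and of Smyd2 SMC-/- mice, in which Cre under the SM22alpha (Tagln) promoter removes the floxed part in smooth muscle cells. Both groups were of the C57BL/6 strain, came from young adult animals, carried the floxed alleles and had 3 libraries each. The labels give cells at passage 6 in medium with 10% FBS, whereas the methods of the study give an earlier passage and overnight starvation, so the serum state of the cells at harvest is uncertain. Serum is a classical inducer of these genes. The sources do not say whether the libraries of a group came from separate animals, and p-values measure the spread between these libraries.

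Immediate early genes are transcribed within minutes of a stimulus without new protein synthesis, through factors such as SRF, the ETS family partners of SRF and CREB that are already present in the cell. Proteins of the FOS and JUN families join as dimers to form AP-1, and FOS proteins need a JUN partner to bind DNA, while JUN proteins also pair with each other. EGR1 and EGR2 are zinc finger factors that bind GC-rich sites and are held in check by the NAB corepressors. In vascular smooth muscle these factors are known for their induction by growth factors, stretch and injury.

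Expression was given as FPKM, a fragment count corrected for gene length and library size, and values are listed in the order of replicates 1, 2 and 3. The libraries held an estimated 17750000 to 20450000 fragments, read from the steps between low FPKM values. The replicate 1 libraries of both groups stood apart from the others of their group on the first principal component (50.2% of the variance), and the fit was therefore also run without them. Smyd2 itself was measured at 7.87, 3.10 and 3.0 FPKM across the Smyd2 fl/fl libraries and at 1.67, 0.40 and 0.80 FPKM across the Smyd2 SMC-/- libraries. The groups did not overlap, with Smyd2 SMC-/- on the lower side, as the labels require. Smyd2 had a log2 fold change of -1.48 (SE 0.389, limma adjusted p = 0.105, or 0.0189 when same-numbered libraries were treated as a block), and of -2.21 with 0.1 in place of 1 added before the log (limma adjusted p = 0.104).

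Promoter windows from RefSeq (GRCm38.p6) were used for 7 of the 10 genes, and the 250 bases before a listed start of Fos, Jun and Egr2 are shown because each holds a known kind of control element of its family. Capitals mark motifs found on either strand: TGACG, the core of a cAMP response element, and TATAAA in Fos, TGACATCA in Jun, and TGACG and a CArG box, the binding site of SRF, in Egr2. Egr2 had 5 windows for alternative starts, and the window shown was picked for its motifs from the 2 that overlap no annotated exon. It ends where an annotated exon of that gene begins, inside the span of the gene from 67535475 to 67542188. A CArG box was found in 4 of the 5 windows, TGACG in 3, and no motif in the window of the first start. The 3 windows with TGACG start at 67537619, 67537620 and 67537680 and overlap. They share the same CArG box and the same TGACG sites, so these counts of windows are not counts of separate sites.
Fos, chr12:85473640-85473889, plus strand: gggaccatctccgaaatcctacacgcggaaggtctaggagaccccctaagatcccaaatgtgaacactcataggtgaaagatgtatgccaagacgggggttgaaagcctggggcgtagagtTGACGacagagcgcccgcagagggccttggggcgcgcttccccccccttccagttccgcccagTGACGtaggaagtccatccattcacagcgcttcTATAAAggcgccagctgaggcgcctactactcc
Jun, chr4:95052223-95052472, minus strand: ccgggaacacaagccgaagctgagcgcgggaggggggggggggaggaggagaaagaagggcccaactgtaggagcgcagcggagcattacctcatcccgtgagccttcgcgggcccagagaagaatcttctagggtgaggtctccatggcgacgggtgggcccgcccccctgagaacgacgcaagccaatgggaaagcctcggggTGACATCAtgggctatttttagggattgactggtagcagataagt
Egr2, chr10:67537619-67537868, plus strand: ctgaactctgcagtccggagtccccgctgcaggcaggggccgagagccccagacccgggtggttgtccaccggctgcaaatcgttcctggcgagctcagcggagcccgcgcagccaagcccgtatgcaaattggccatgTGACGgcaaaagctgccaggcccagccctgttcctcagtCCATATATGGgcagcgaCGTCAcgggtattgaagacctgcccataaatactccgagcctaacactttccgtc
TGACG occurred in 17.8% of all 32851 windows of this length, TATAAA in 12.4%, TGACATCA in 2.93% and a CArG box in 1.47%. The full sites TGACGTCA (1.55% of all windows) and TGACTCA (4.46%) were found in none of the windows of these genes. The EGR site GCGGGGGCG (2.57% of all windows) was found in the windows of Fosl2 and Fosb, of which that of Fosl2 lies with all 250 bases in an annotated exon. A match describes letters in these windows and was not tested for binding. Bases further upstream were not searched, so a motif missing from a window, such as a CArG box in that of Fos, can lie beyond it.

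The genes differed widely in level. In Smyd2 fl/fl the mean was highest for Jund (50.0 ± 13.2 FPKM, SD, n = 3), followed by Junb (48.4 ± 7.44) and Fosl2 (34.8 ± 10.7). Neighbours in this order overlapped from Jund down to Ier2 (13.5 ± 1.15 FPKM, SD, n = 3), so the upper part of the order was not resolved by the libraries. Fos lay apart below Ier2 at 4.69 ± 1.73 FPKM (SD, n = 3), and Egr2 and Fosb were lowest at 0.727 ± 0.139 and 0.510 ± 0.339 FPKM (SD, n = 3). In Smyd2 SMC-/- Egr1 had the highest mean (62.7 ± 12.8 FPKM, SD, n = 3), overlapping with Jund (54.6 ± 9.42), while Fosl1 had moved below Fos (4.27 ± 1.20 against 7.98 ± 1.20).

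**Figure D1:**
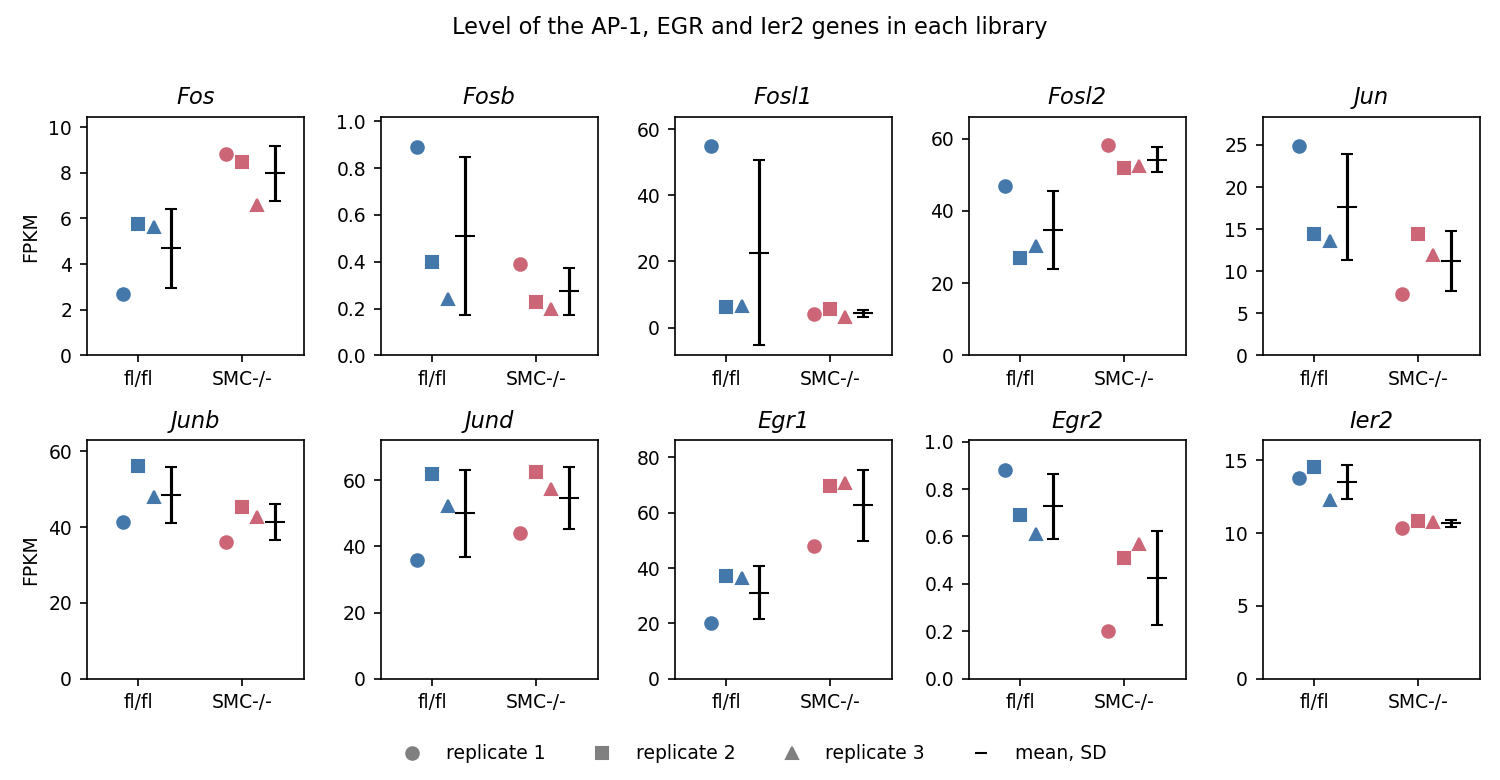
FPKM of each gene in the 3 libraries of each group, with the mean and SD beside them and a scale of its own for each gene. Egr1, Fosl2 and Fos lie higher in every Smyd2 SMC-/- library, and Fosl1 reaches 54.89 FPKM in Smyd2 fl/fl replicate 1 alone.

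Of the 10 genes, 9 averaged at least 0.5 FPKM over the libraries and were tested, and Fosb was not. Over all genes 154 were called higher and 152 lower in limma, or 247 and 99 on the TPM scale. With p adjusted over all 12565 tested genes, 0 of the 9 genes passed an adjusted p of 0.05, where 2.44% of all tested genes did. At an unadjusted p under 0.05 there were 4 of the 9 genes, against 2556 of all tested genes (20.3%). The groups did not overlap for 6 of the 9 genes, namely Egr1, Fos and Fosl2 on the higher side and Fosl1, Egr2 and Ier2 on the lower side, where 28.1% of all tested genes did not overlap. With the replicate block 1 of the 9 genes, Egr1, was called higher, where 4.72% of all tested genes were. In replicates 2 and 3 alone Egr1 and Fosl2 were called higher, where 12.1% of the genes tested there were. On the TPM scale, where the median over all genes shifted by 0.11, every direction of the 9 genes was kept, and the groups of Fosl1 and Egr2 overlapped.

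Egr1, which encodes a zinc finger factor induced by many growth factors, had the smallest adjusted p of the 9 genes. The gene (NCBI number 13653) spans 34859823 to 34864984 of chromosome 18 in GRCm38. It was measured at 20.02, 37.06 and 36.29 FPKM across the Smyd2 fl/fl libraries and at 47.92, 69.50 and 70.63 FPKM across the Smyd2 SMC-/- libraries. Replicate 1 was the lowest library in each group, and the groups did not overlap. The log2 fold change was 1.02 (SE 0.279, limma adjusted p = 0.116), and 1.06 on the TPM scale relative to the median of all genes. Within the same-numbered pairs it was 1.22, 0.89 and 0.94 on the log2 scale, so the difference was of similar size in each pair. With the replicate block the adjusted p was 0.0168 (SE 0.109), and in replicates 2 and 3 alone the log2 fold change was 0.92 (limma adjusted p = 0.000566). The exact permutation p was 0.1, the smallest that 3 against 3 libraries allow.

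Egr2, the related factor known from Schwann cells and hindbrain, was scarce. It was measured at 0.88, 0.69 and 0.61 FPKM across the Smyd2 fl/fl libraries and at 0.20, 0.51 and 0.57 FPKM across the Smyd2 SMC-/- libraries, or about 48, 40 and 35 against 10, 29 and 32 fragments. The Smyd2 SMC-/- libraries lay below the others, with most of the distance in replicate 1. Its log2 fold change was -0.28 (SE 0.188, limma adjusted p = 0.469), and -0.10 in replicates 2 and 3 alone, but -0.72 with 0.1 in place of 1 added before the log (limma adjusted p = 0.467). Egr1 and Egr2 thus lay on opposite sides of 0, and the difference between them was not tested.

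Among the FOS family, Fosl2 encodes FRA-2, which lacks the strong activation domain of FOS. Its gene (NCBI number 14284) spans 32135801 to 32157842 of chromosome 5 in GRCm38. Fosl2 was measured at 46.98, 27.05 and 30.26 FPKM across the Smyd2 fl/fl libraries and at 58.33, 51.89 and 52.50 FPKM across the Smyd2 SMC-/- libraries. All Smyd2 SMC-/- libraries were above all Smyd2 fl/fl libraries, among which replicate 1 was nearest to them. Its log2 fold change was 0.67 (SE 0.214, limma adjusted p = 0.157, or 0.0527 with the replicate block). Without replicate 1 the difference was 0.85 (SE 0.102, limma adjusted p = 0.00112), and without Smyd2 fl/fl replicate 1 alone it was 0.90 (limma adjusted p = 0.0379). With replicate 1 as a term, which keeps all 6 libraries, Fosl2 was called higher (limma adjusted p = 0.0190), and without Smyd2 SMC-/- replicate 1 it was not (0.61, limma adjusted p = 0.191). The call of Fosl2 therefore depended on the model and on Smyd2 fl/fl replicate 1.

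Fos, the founding member of the family, was measured at 2.69, 5.74 and 5.64 FPKM across the Smyd2 fl/fl libraries and at 8.83, 8.49 and 6.61 FPKM across the Smyd2 SMC-/- libraries. The groups did not overlap, and replicate 1 held both the lowest and the highest library. The log2 fold change was 0.70 (SE 0.271, limma adjusted p = 0.217), and 0.35 in replicates 2 and 3 alone (limma adjusted p = 0.1). Fosl1, which encodes FRA-1, was measured at 54.89, 6.18 and 6.67 FPKM across the Smyd2 fl/fl libraries and at 4.25, 5.48 and 3.08 FPKM across the Smyd2 SMC-/- libraries. Smyd2 fl/fl replicate 1 stood far above the other libraries, which lay close together. The log2 fold change of -1.49 (SE 0.782, limma adjusted p = 0.344) became -0.53 in replicates 2 and 3 alone (limma adjusted p = 0.108). Fosb was measured at 0.89, 0.40 and 0.24 FPKM across the Smyd2 fl/fl libraries and at 0.39, 0.23 and 0.20 FPKM across the Smyd2 SMC-/- libraries, about 62, 30 and 18 against 25, 17 and 15 fragments, with overlapping groups.

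The summed level of the FOS family overlapped between the groups, at 105, 39.4 and 42.8 FPKM across the Smyd2 fl/fl libraries and 71.8, 66.1 and 62.4 FPKM across the Smyd2 SMC-/- libraries. The shares of Fosl2, Fosl1 and Fosb in it separated the groups where the sum did not. Shares of the same sum depend on each other, so these are not separate results. Fosl2 made up 44.6%, 68.7% and 70.7% of the sum across the Smyd2 fl/fl libraries and 81.2%, 78.5% and 84.1% across the Smyd2 SMC-/- libraries. Fosl1 made up 52.1%, 15.7% and 15.6% across the Smyd2 fl/fl libraries and 5.92%, 8.29% and 4.94% across the Smyd2 SMC-/- libraries. Fosb, the scarcest, made up 0.844%, 1.02% and 0.561% against 0.543%, 0.348% and 0.321% (two-sided exact permutation p = 0.1), so that its nearest libraries were only just apart. The shares of Fosl2 and Fosl1 gave the same p in the two-sided exact permutation test, while that of Fos overlapped, at 10.1 ± 6.58% against 11.9 ± 1.17% (SD, n = 3 each; exact permutation p = 1.00).

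**Figure D2:**
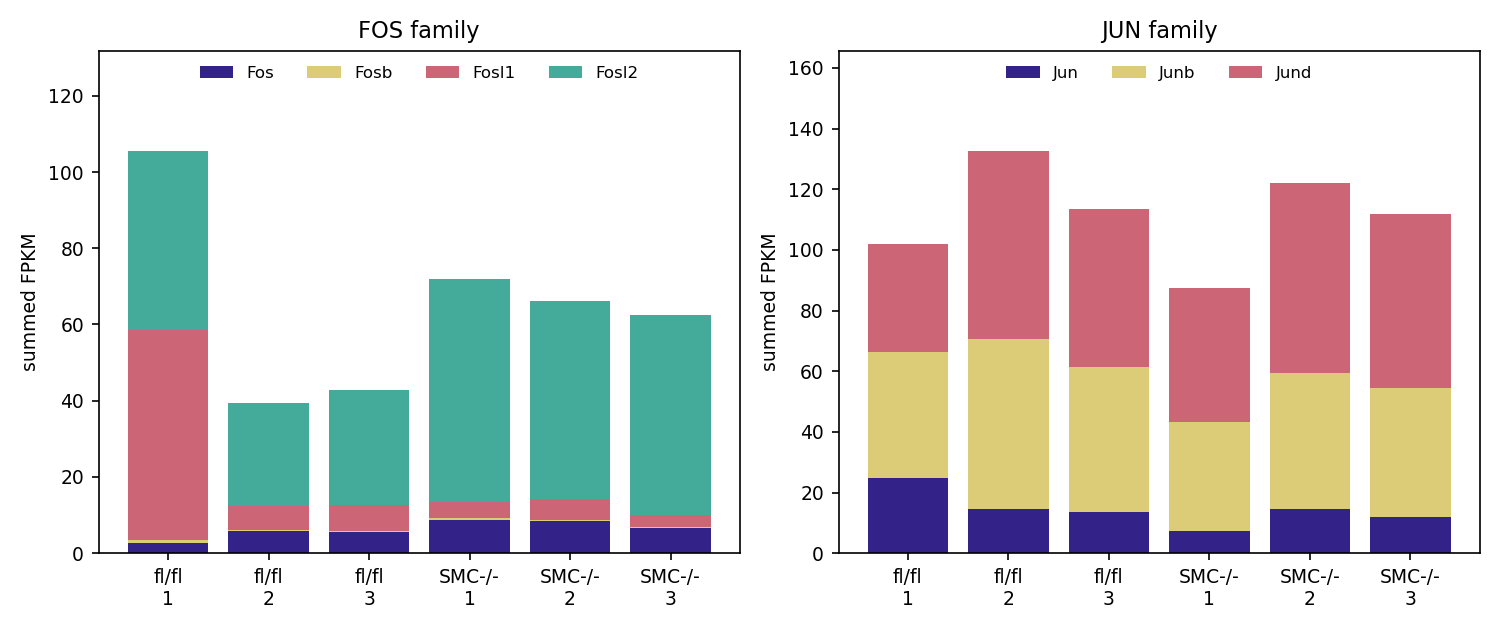
Summed FPKM of the FOS family and of the JUN family in each library, with each gene as a layer of the bar. Fosl1 takes 52.1% of the FOS family in Smyd2 fl/fl replicate 1, and Fosl2 takes at least 78.5% in each Smyd2 SMC-/- library.

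The levels of the JUN family genes overlapped between the groups over all 6 libraries. Jun, the strongest activator of the family, was measured at 24.88, 14.41 and 13.63 FPKM across the Smyd2 fl/fl libraries and at 7.32, 14.40 and 11.92 FPKM across the Smyd2 SMC-/- libraries. The groups overlapped and the replicate 1 libraries held both extremes. The difference of Jun was -0.61 on the log2 scale (SE 0.310, limma adjusted p = 0.334), and -0.09 in replicates 2 and 3 alone, with -1.64, -0.00 and -0.18 within the same-numbered pairs. Junb, which can restrain Jun, had 48.4 ± 7.44 and 41.2 ± 4.71 FPKM (SD, n = 3 each) in Smyd2 fl/fl and Smyd2 SMC-/- (log2 fold change -0.22, limma adjusted p = 0.504). In replicates 2 and 3 alone Junb did not overlap, at 56.14 and 47.81 against 45.17 and 42.56 FPKM, and was not called (log2 fold change -0.24, limma adjusted p = 0.156). Within the pairs Junb was at -0.19, -0.31 and -0.16 on the log2 scale, and leaving out single libraries gave between -0.33 (without Smyd2 fl/fl replicate 1) and -0.11 (without Smyd2 fl/fl replicate 2). Jun did not overlap, on the lower side, when Smyd2 fl/fl replicate 3 or Smyd2 SMC-/- replicate 2 was left out. Jund, the member least dependent on serum, had 50.0 ± 13.2 and 54.6 ± 9.42 FPKM (SD, n = 3 each; log2 fold change 0.15, limma adjusted p = 0.788), with 0.29, 0.01 and 0.14 within the pairs and 0.07 in replicates 2 and 3 alone. Leaving out Smyd2 fl/fl replicate 1, which breaks up a pair, gave -0.07. Jun, Junb and Jund summed to 116 ± 15.4 and 107 ± 17.7 FPKM (SD, n = 3 each) in Smyd2 fl/fl and Smyd2 SMC-/-, with overlapping groups. The share of Jund in this sum did not overlap, at 35.1%, 46.8% and 45.9% across the Smyd2 fl/fl libraries and 50.5%, 51.2% and 51.3% across the Smyd2 SMC-/- libraries (two-sided exact permutation p = 0.1), while the shares of Jun and Junb overlapped (exact permutation p = 0.200 for each).

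Ier2, a nuclear immediate early protein, was measured at 13.75, 14.52 and 12.25 FPKM across the Smyd2 fl/fl libraries and at 10.38, 10.86 and 10.73 FPKM across the Smyd2 SMC-/- libraries. The groups did not overlap, and the Smyd2 SMC-/- libraries were close to each other. Ier2 had a log2 fold change of -0.31 (SE 0.125, limma adjusted p = 0.230), and -0.28 in replicates 2 and 3 alone (limma adjusted p = 0.110).

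**Figure D3:**
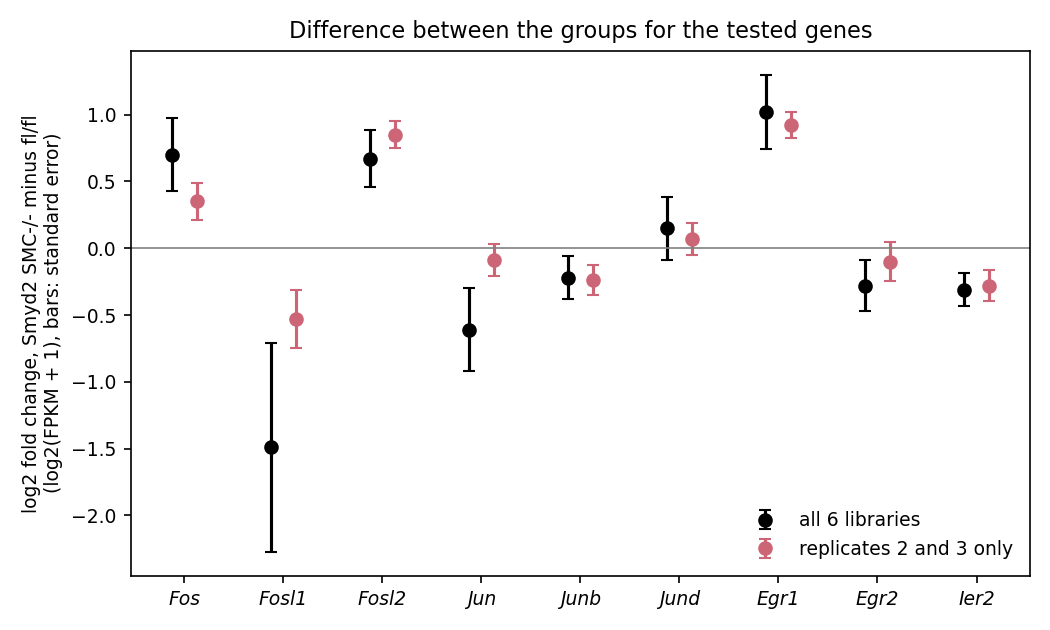
Log2 fold change of Smyd2 SMC-/- against Smyd2 fl/fl with its standard error for the 9 tested genes, over all 6 libraries and in replicates 2 and 3 alone. Egr1, Fosl2, Junb and Ier2 stay near their values or move away from 0 without replicate 1, while Fosl1, Jun, Fos, Egr2 and Jund move toward 0.

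The genes that partner these factors were read from the same fit. Of 11 tested AP-1 partner and related bZIP genes 1 rose and 0 fell, where 2.44% of all tested genes were called in either direction. The median log2 fold change of the list was 0.23 against -0.02 over all tested genes. Maf, a large bZIP factor, was measured at 1.28, 5.32 and 3.77 FPKM across the Smyd2 fl/fl libraries and at 36.39, 44.44 and 51.59 FPKM across the Smyd2 SMC-/- libraries. Every Smyd2 SMC-/- library lay far above (log2 fold change 3.45, SE 0.376, limma adjusted p = 0.0112). Atf4, a mediator of the stress response, had a log2 fold change of 0.29 and Ddit3 of -0.12, with limma adjusted p of 0.806 and 0.835. Of 3 tested EGR partners 0 passed in limma and 1 had an unadjusted p under 0.05 (20.3% over all tested genes). With the replicate block Wt1 was called higher, where 4.72% of all tested genes were. In replicates 2 and 3 alone 1 of the 4 tested there was called higher and 1 lower (12.1% and 17.3% over all genes). The corepressor gene Nab2 had a log2 fold change of -0.64 (limma adjusted p = 0.170) and Nab1 of -0.01 (limma adjusted p = 0.975).

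Among 46 tested other immediate early genes 0 rose and 2 fell, where 2.44% of all tested genes were called in either direction. The median log2 fold change of the list was -0.17. Tnfaip3, an inhibitor of NF-kappaB signalling, was measured at 21.15, 12.29 and 12.77 FPKM across the Smyd2 fl/fl libraries and at 4.94, 5.0 and 5.35 FPKM across the Smyd2 SMC-/- libraries (log2 fold change -1.39, limma adjusted p = 0.0347). Plk2, a serum-induced kinase, was at 93.45, 60.44 and 60.19 FPKM and at 31.52, 30.32 and 27.65 FPKM (log2 fold change -1.20, limma adjusted p = 0.0373). For both the groups did not overlap, so a fall in each same-numbered pair follows from that. With the replicate block 2 genes of the list were called higher, Btg2 and Trib1, and 3 lower, Plk2, Tnfaip3 and Dusp1, where 4.72% of all tested genes were called higher and 5.72% lower. In replicates 2 and 3 alone 14 were called higher and 12 lower (median 0.01), where 12.1% of all 12462 genes tested there were called higher and 17.3% lower.

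Of 27 upstream SRF, ETS and MAP kinase genes, all tested, 2 rose and 1 fell (median log2 fold change -0.09). Over all tested genes 2.44% were called in either direction. At an unadjusted p under 0.05 in limma there were 8 of the 27, where 20.3% of all tested genes were. Mef2c and Mef2a, MADS box factors related to SRF, rose by 1.62 (limma adjusted p = 0.0448) and 0.70 (limma adjusted p = 0.0474) on the log2 scale. Mef2c was at 0.10, 0.31 and 0.35 FPKM across the Smyd2 fl/fl libraries and at 1.6, 3.05 and 4.33 FPKM across the Smyd2 SMC-/- libraries. It passed the minimum of 0.5 FPKM on the mean over all libraries only through the Smyd2 SMC-/- libraries. No conclusion is drawn from its call. Map2k2, which encodes the kinase MEK2 above ERK, fell by 0.66 (limma adjusted p = 0.0347). Map2k1 was called higher and Elk3 lower besides when the replicate block was used (4.72% and 5.72% over all tested genes). In replicates 2 and 3 alone 4 of the list were called higher and 5 lower (12.1% and 17.3% over all genes tested there). Among 16 tested AP-1 target genes 0 passed the test (median log2 fold change 0.19), and with the replicate block 5 were called higher, namely Mmp13, Timp1, Hmox1, Spp1 and Lif, and 0 lower (4.72% and 5.72% over all tested genes). At an unadjusted p under 0.05 in limma there were 4 of them, where 20.3% of all tested genes were. The most abundant, Mmp3 and Timp1, had log2 fold changes of 0.08 and 0.58 (limma adjusted p = 0.975 and 0.293). Among 11 tested EGR1 target genes 1 rose and 0 fell (median log2 fold change -0.15). Of all tested genes 2.44% were called in either direction. An unadjusted p under 0.05 in limma was found for 5 of the 11, against 20.3% of all tested genes. Pdgfa, the gene of a growth factor chain for mesenchymal cells, was measured at 9.04, 10.24 and 9.69 FPKM across the Smyd2 fl/fl libraries and at 17.95, 21.84 and 22.59 FPKM across the Smyd2 SMC-/- libraries (log2 fold change 1.03, SE 0.139, limma adjusted p = 0.0216), with no overlap. Icam1 was called lower besides with the replicate block (5.72% over all tested genes). In replicates 2 and 3 alone the log2 fold changes of Maf, Pdgfa, Tnfaip3 and Plk2 were 3.15, 1.08, -1.13 and -1.03. The groups of these genes did not overlap over all libraries, so their direction could not change there. The most abundant of this list, Sod1 and Apoe, had log2 fold changes of -0.43 and 0.84 (limma adjusted p = 0.361 and 0.619).

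Other genes were called in replicates 2 and 3 alone that were not called over all libraries. There Nab2 was called lower (log2 fold change -0.36, limma adjusted p = 0.0266), as was Sod1 (-0.70, limma adjusted p = 0.00726), while Timp1 (0.66, limma adjusted p = 0.0164) and Apoe (1.29, limma adjusted p = 0.0296) were called higher. Mef2a and Map2k2 kept their calls at 0.82 and -0.66 on the log2 scale. Mef2c, which passed the filter only through Smyd2 SMC-/-, was at 1.80, and no conclusion is drawn from it. Atf4, Ddit3, Nab1 and Mmp3, at 0.15, -0.30, -0.09 and 0.48, were not called. The median of the EGR1 target genes was 0.19, on the other side of 0 than over all libraries (3 called higher and 4 lower), and that of the AP-1 target genes was 0.34 (7 called higher and 0 lower), where 12.1% of all genes tested there were called higher and 17.3% lower. The medians were -0.09 for the 9 members, 0.15 for the AP-1 partner and related bZIP genes, -0.15 for the EGR partners and -0.13 for the upstream genes, against -0.06 over all genes tested there.

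**Figure D4:**
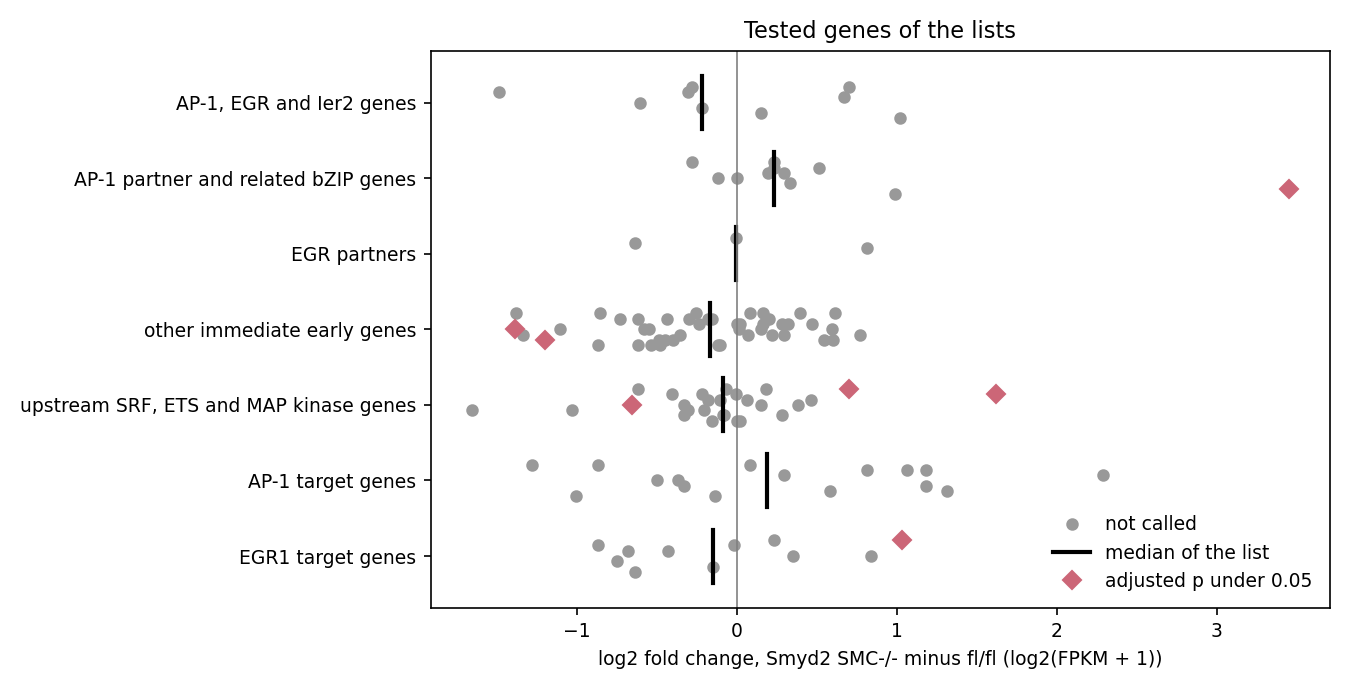
Log2 fold change of each tested gene in 7 lists, with genes past an adjusted p of 0.05 as diamonds and the list median as a bar. Maf lies at 3.45, and the medians of the lists lie between -0.22 and 0.23.

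The genes whose profile over the 6 libraries was nearest to a member were found among 11158 genes by the root mean square difference of mean-centred log2 values. The nearest to Egr1 were Npr3 (0.0551), Fzd5 (0.1) and Manba (0.110), and the nearest to Fos were Fam43a (0.1), St3gal4 (0.114) and Gga2 (0.119). For Jun they were Errfi1 (0.0437), itself an immediate early gene, Tpm2 (0.0849), which is also among the smooth muscle markers, and Zfp53 (0.134). Likeness over 6 libraries describes a shared pattern and was not tested.

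Markers of cell types and cell states were read in the same way. Over all tested genes 2.44% were called in either direction in limma and 20.3% had an unadjusted p under 0.05. With the replicate block 4.72% were called higher and 5.72% lower, against 12.1% and 17.3% in replicates 2 and 3 alone. Of 8 tested smooth muscle markers 1 fell, with a median log2 fold change of -0.91, and their sum came to 1121, 951 and 941 FPKM across the Smyd2 fl/fl libraries and 307, 553 and 503 FPKM across the Smyd2 SMC-/- libraries. Without Acta2 the sums overlapped, at 360, 269 and 258 against 106, 286 and 241 FPKM, and in replicates 2 and 3 alone the median was -0.05, with Acta2 and Actg2 called lower and Lmod1 called higher (log2 fold change 0.83, limma adjusted p = 0.00322, against 0.24 over all libraries). Acta2, the most abundant of them, had a log2 fold change of -1.55 (limma adjusted p = 0.00803), and -1.36 in replicates 2 and 3 alone. Tagln, the source of the Cre promoter, was measured at 80.49, 79.14 and 70.26 FPKM across the Smyd2 fl/fl libraries and at 12.46, 87.30 and 57.12 FPKM across the Smyd2 SMC-/- libraries. Its log2 fold change of -0.92 (limma adjusted p = 0.496) became -0.08 in replicates 2 and 3 alone (limma adjusted p = 0.801). Myh11, a defining marker of contractile cells, was at most at 0.22 FPKM in any library. Of 8 tested fibroblast markers 3 had positive and 5 negative log2 fold changes, and 1 fell, Dpt (log2 fold change -5.28, limma adjusted p = 0.00417), and their sum overlapped between the groups, at 301, 919 and 785 against 81.4, 572 and 518 FPKM. Without Dcn the sums did not overlap, at 287, 608 and 528 against 55.8, 189 and 168 FPKM. Dcn, the most abundant, was at 13.88 and 25.59 FPKM in the replicate 1 libraries and at 256.65 FPKM or more in the others, with a log2 fold change of 0.53 (limma adjusted p = 0.890) and a positive sign in each same-numbered pair. Lum had a log2 fold change of 1.82 (limma adjusted p = 0.342), and Ly6a had a log2 fold change of -1.09 (limma adjusted p = 0.552). The replicate block gave 3 fibroblast markers called lower, Dpt, Cd34 and Ly6a (5.72% over all tested genes). In replicates 2 and 3 alone 5 were called lower (median -1.50, 17.3% over all genes tested there) and Lum was called higher (log2 fold change 2.57). Fewer cells of a type and less RNA per cell cannot be told apart in such bulk samples.

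Of the endothelial markers 1 of 8 was tested and 0 passed in limma, with 1 at an unadjusted p under 0.05. They summed to 1.71, 2.65 and 2.60 FPKM across the Smyd2 fl/fl libraries and 2.44, 5.64 and 3.04 FPKM across the Smyd2 SMC-/- libraries, with overlapping groups. Kdr, the tested gene, had a log2 fold change of 1.16 (limma adjusted p = 0.186) and was called higher in replicates 2 and 3 alone (1.53, limma adjusted p = 0.00263). Without Kdr the sums overlapped as well, at 1.24, 2.07 and 1.76 against 1.48, 0.490 and 0.0800 FPKM. Pecam1, at 0.56, 0.88 and 0.92 against 0.12, 0.18 and 0.00 FPKM, lay lower in Smyd2 SMC-/- without overlap and was not tested, nor were Vwf and Egfl7, whose groups overlapped (log2 fold changes -0.11 and -0.25), while Cdh5 and Tie1 stayed under 0.1 FPKM in every library. Of 7 macrophage markers 4 were tested and 0 passed, with 1 at an unadjusted p under 0.05. They summed to 42.6, 30.0 and 26.7 FPKM and to 40.9, 18.3 and 22.8 FPKM. Cd14 led them (log2 fold change -0.40), Cd68 averaged 3.85 FPKM over the libraries, and Ptprc, Adgre1 and Itgam stayed under 0.1 FPKM. Csf1r, at 0.58, 0.53 and 0.48 against 1.66, 1.42 and 1.14 FPKM, did not overlap (log2 fold change 0.65, limma adjusted p = 0.102) and was called higher in replicates 2 and 3 alone (0.60, limma adjusted p = 0.0225). Lyz2, at 1.04, 3.78 and 4.04 against 1.01, 1.41 and 1.69 FPKM, lay lower in each pair (log2 fold change -0.64, limma adjusted p = 0.398) and was called lower in replicates 2 and 3 alone (-0.95, limma adjusted p = 0.00286). The macrophage sums overlapped with and without Cd14. Proliferation genes all had negative log2 fold changes (10 of 10 tested, median -0.61, 0 called in limma, 5 at an unadjusted p under 0.05, and Cdk1 called lower with the replicate block) and summed to 305, 232 and 240 against 193, 204 and 127 FPKM, with no overlap, led by Pcna (log2 fold change -0.44, limma adjusted p = 0.159) with Top2a at -0.52, and without Pcna the sums did not overlap either. The 7 heat shock genes, read as a sign of stress, had a median of -0.26 with 0 called in limma and 0 at an unadjusted p under 0.05 (median -0.20 in replicates 2 and 3 alone), and they summed to 2425, 2305 and 2155 against 1748, 2047 and 2066 FPKM, with no overlap. Of this list, the most abundant genes Hspa8 and Hsp90aa1 had log2 fold changes of -0.26 and -0.02 (-0.20 and 0.21 in replicates 2 and 3 alone), and without Hspa8 the sums overlapped. Hspa1b, at 239.41, 36.48 and 36.29 against 114.61, 28.62 and 23.91 FPKM, and Hsph1, at 148.75, 35.49 and 34.52 against 77.44, 26.77 and 28.55 FPKM, were highest in the replicate 1 library of each group. Both were called lower in replicates 2 and 3 alone, and Hspb1 was called higher there (log2 fold change 0.87, limma adjusted p = 0.00265, against 0.48 over all libraries). The part of smooth muscle, fibroblast, proliferation and heat shock genes in the differences of the AP-1 and EGR genes was not tested.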

How the data were processed

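RNA from cultured aortic VSMCs was measured in 3 Smyd2 fl/fl and 3 Smyd2 SMC-/- libraries, grouped by their labels. Read filtering by the authors used SOAPnuke, mapping used HISAT and Bowtie2, and RSEM gave the deposited FPKM. Tool versions and the genome build of the mapping are not given in the sources used here. The labels and the methods of the study differ on passage, serum, extraction and library kit. Here values were log2-transformed after adding 1, genes averaging under 0.5 FPKM were left out, and genotypes were tested by limma 3.58.1 (R 4.3.3; lmFit, eBayes with trend and robust settings) with Benjamini-Hochberg adjustment over 12565 genes. Because of the added 1, fold changes of scarce genes come out too small. Genes were called at an adjusted p under 0.05. The fits were checked on simulated data with independent noise for each gene and library. The simulated libraries had no part shared by replicate 1, so the check does not cover the differences between replicates seen here.

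The members and lists were chosen with earlier results of these data known. Genes named in the text are the 10 members, Smyd2, in each list the called genes (at most 3 rises and 3 falls) or, where fewer than 2 were called, also the 2 most abundant tested genes, and the 3 genes nearest in profile to Fos, Jun and Egr1 with a mean of at least 1 FPKM. Genes of the lists that passed only with the replicate block are named besides, except for a gene that is not reported here. Myh11, Actg2, Lmod1, Lum, Pecam1, Vwf, Egfl7, Cdh5, Tie1, Csf1r, Lyz2, Ptprc, Adgre1, Itgam, Hspa1b, Hsph1 and Hspb1 fall outside these rules and were named after their values had been seen. The replicate block and the pairs took libraries of the same replicate number together, although the labels give the numbers without stating a pairing. Deviations of same-numbered libraries from their group means correlated by 0.61, 0.46 and 0.53 over genes. Replicates 2 and 3 correlated across numbers by 0.46 and 0.44. These values set replicate 1 apart and do not show that replicates 2 and 3 are paired by number. Depth was estimated from genes with 1 listed transcript of known length in GENCODE M21, of which there were 4343. Only low values of transcripts in a set range of lengths were used, 295 to 355 per library. Of these, 71.0% to 76.9% fell within 0.15 of a whole number of fragments. The depth was picked to make this share largest, whereas the 30% by chance holds for a fixed depth, so the 2 are not alike. Fragment numbers are therefore approximate. Motifs and promoters used the upstream 250 bases of RefSeq windows, and stretches overlapping annotated exons are not printed. Alternatives were other pseudocounts and filters, the replicate block, leaving out each library, replicates 2 and 3 only, replicate 1 as a term, TPM, quantile normalization, stricter cutoffs and plain eBayes settings. Calculations used Python 3.11.15, numpy 2.4.6, pandas 2.3.3 and matplotlib 3.10.9.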

Additional observations from a re-analysis of the deposited data

How the results depend on the processing

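Over all genes 154 were called higher and 152 lower, with 0 of the AP-1 and EGR genes in either. With the replicate block the numbers were 593 higher and 719 lower, and 1 member (Egr1) was called higher. In replicates 2 and 3 only they were 1507 and 2160 with 2 members (Egr1 and Fosl2), and with replicate 1 as a term 1152 and 1398 with 2 members (the same genes). TPM gave 247 higher and 99 lower, and 1 member instead of 3 did not overlap on the lower side. A fold change above 2 with an adjusted p under 0.01 left 27 and 26 genes. Leaving out each library in turn gave 16 to 372 genes higher and 16 to 310 lower, with the fewest calls when replicate 2 or 3 of either group was left out and the most without Smyd2 SMC-/- replicate 1, and 0 to 1 member called higher, Fosl2 without Smyd2 fl/fl replicate 1. Smyd2 kept its direction throughout (-2.21 with a pseudocount of 0.1), which leaving out libraries could not change because its groups did not overlap. Its log2 fold change was past the threshold at -1.48 with the replicate block and with replicate 1 as a term. In replicates 2 and 3 only it was past the threshold at -1.35. Jund reversed to -0.07 without Smyd2 fl/fl replicate 1 and was at up to 0.32 with another library left out. The block changed no other member call. The cause of these changes was not tested.

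With 3 libraries a group, an exact permutation test cannot go below p = 0.1. Fits of replicates 2 and 3 rest on 2 libraries a group, and whether those came from separate animals is not given. Fosb, Egr2 and Myh11 are limited by depth.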
